A study of Mus musculus with 6 samples.

Results

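Genes of the epicardium and of mesothelium were read in RNA-seq libraries of cardiac fibroblasts. The members are the 10 rows of the gene table named *Wt1*, *Tcf21*, *Tbx18*, *Aldh1a2*, *Upk3b*, *Upk1b*, *Msln*, *Krt8*, *Krt18* and *Krt19*, of 34745 genes listed. The rows were taken by name, from a list drawn up with earlier results of these data known. All 10 passed the expression filter that left 14084 genes for the test, and the lowest count of any member in any library was 108. The study isolated fibroblasts from the left ventricle of KDM5B-knockout (KO) mice and wild-type (WT) littermates on Day 7 after myocardial infarction (MI), which both groups had undergone. Each label has 3 libraries. For the MI operation, a ligation of the left anterior descending artery, the study describes male mice of 8 to 10 weeks. The knockout was made with CRISPR/Cas9 by deleting the part of *Kdm5b* that encodes the JmjC domain, the catalytic domain of this histone H3 demethylase, in the mouse line as a whole and not in fibroblasts alone. The labels do not say whether a library holds 1 animal or a pool, so p-values measure the spread between these libraries.

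The epicardium is the mesothelial sheet that covers the heart. In the embryo, some of its cells leave the sheet, move into the myocardium and become fibroblasts and mural cells, and in the adult heart the sheet is activated again by injury. Its cells combine transcription factors of the developing heart wall (*Wt1*, *Tcf21*, *Tbx18*), the synthesis of retinoic acid (*Aldh1a2*), surface proteins shared with other mesothelia (*Msln*, *Upk3b*, *Upk1b*), and the keratin filaments of a simple epithelium (*Krt8*, *Krt18*, *Krt19*). *Tcf21* also marks resident cardiac fibroblasts, so its level alone does not separate the epicardial sheet from the interstitium.

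In the libraries labelled KO, 9 of the 10 genes were lower than in the libraries labelled WT and 1, *Krt19*, was higher, whereas with the libraries scaled on fibroblast marker genes none of the 9 passed the test and *Tbx18*, *Upk1b* and *Krt8* turned to 0.0034, 0.0061 and 0.031 on the log2 scale. The 9 lower genes lay at 68.7% to 76.9% of their level in WT, with log2 fold changes from -0.54 to -0.38 and standard errors from 0.05 to 0.10. *Krt19* rose 2.88-fold. Calls were made with edgeR's quasi-likelihood test at an adjusted p under 0.05, and over all genes tested 30.2% were called, 12.5% as lower and 17.7% as higher. In none of the 10 did the libraries of the 2 labels overlap, which was also the case for 47% of all genes tested. The median log2 fold change was -0.43 over the 10 genes and -0.02 over all genes tested.

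Between 12025403 and 15329427 counts per library fell on genes. *Kdm5b*, the targeted gene, was at 98.1, 107 and 105 CPM in KO (counts scaled to a common library size after normalization by the trimmed mean of M-values, TMM) and at 108, 129 and 123 in WT. Its log2 fold change of -0.22 (SE 0.07) did not pass the threshold (adjusted p = 0.0574, edgeR), so the groups are called by their labels. This count covers the whole gene and does not read the deleted stretch by itself, so it does not check the deletion. By Q-PCR and immunoblot, the study reports KDM5B as nearly absent from cardiac fibroblasts of the knockout mice. The log2 fold change of *Kdm5b* passed without WT replicate 1 (-0.29, adjusted p = 0.0188, edgeR), with upper quartile scaling (-0.26, adjusted p = 0.0324, edgeR) and with the replicate number as a block (-0.21, adjusted p = 0.0271, edgeR), and turned to 0.20 with fibroblast marker scaling. The fibroblast marker list was measured in full, and 11 of its 12 genes were lower in KO, with a median of -0.41 on the log2 scale, which fibroblast marker scaling brings to about 0 by construction, among them *Pdgfra* at -0.32, *Dcn* at -0.40 and *Col1a1* at -0.44. Of 14 endothelial marker genes 13 were higher, with a median of 2.43, and their summed level was 1600 to 2280 CPM in KO against 322 to 327 CPM in WT. *Pecam1*, the endothelial adhesion molecule CD31, stood at 720, 514 and 633 CPM in KO and at 42.4, 40.3 and 35.7 CPM in WT. Lymphocyte and adipocyte markers had at most 3 counts in any library. In bulk RNA, fewer cells of a type and less RNA per cell cannot be told apart.

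The promoters of 4 members are shown because these genes moved together or, in the case of the keratin pair, share a locus, while they differ in sequence. RefSeq promoter windows (GRCm38.p6, 250 bases before to 50 after the start) were matched for 6 of the 10 members, and a CpG dinucleotide, in capitals, occurred 50 times in that of *Aldh1a2*, 17 times in *Krt18*, 15 in *Tbx18*, 8 in *Tcf21*, 6 in *Krt8* and 2 in *Upk3b*. The median over 32851 mouse promoters of the same length was 7. The *Aldh1a2* window (chr9:71215539-71215838, plus strand) held more CpG than 99.1% of promoters, and the *Upk3b* window (chr5:136038246-136038545, plus strand) more than 14.1%.
Aldh1a2: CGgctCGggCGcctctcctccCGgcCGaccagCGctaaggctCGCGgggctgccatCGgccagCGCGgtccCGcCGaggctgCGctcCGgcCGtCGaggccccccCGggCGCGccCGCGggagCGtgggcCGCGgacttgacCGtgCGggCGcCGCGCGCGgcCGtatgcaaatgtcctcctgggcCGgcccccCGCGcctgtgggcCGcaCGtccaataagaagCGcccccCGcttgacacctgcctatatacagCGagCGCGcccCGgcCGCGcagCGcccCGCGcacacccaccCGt
Upk3b: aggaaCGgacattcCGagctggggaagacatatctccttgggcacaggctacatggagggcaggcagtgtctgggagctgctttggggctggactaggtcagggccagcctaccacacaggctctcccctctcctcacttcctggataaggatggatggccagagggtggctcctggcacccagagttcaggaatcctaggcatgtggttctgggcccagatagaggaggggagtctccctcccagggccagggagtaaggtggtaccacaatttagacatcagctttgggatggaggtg
Krt18: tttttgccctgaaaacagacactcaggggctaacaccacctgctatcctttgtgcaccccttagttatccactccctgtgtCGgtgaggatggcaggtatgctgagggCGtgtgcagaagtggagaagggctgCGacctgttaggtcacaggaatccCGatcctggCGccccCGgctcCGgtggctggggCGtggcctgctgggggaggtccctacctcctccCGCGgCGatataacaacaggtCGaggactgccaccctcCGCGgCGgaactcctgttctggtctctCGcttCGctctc
Krt8: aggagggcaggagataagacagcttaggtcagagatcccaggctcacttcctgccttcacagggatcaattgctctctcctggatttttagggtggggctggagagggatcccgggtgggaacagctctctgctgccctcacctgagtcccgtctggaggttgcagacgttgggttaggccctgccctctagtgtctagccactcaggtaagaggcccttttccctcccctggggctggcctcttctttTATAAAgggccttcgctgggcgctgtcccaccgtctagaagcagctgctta
The *Krt18* window is chr15:102027966-102028265 on the plus strand. In the *Krt8* window, chr15:102004293-102004592 on the minus strand, the capitals mark the motif TATAAA instead. It was the only one of the 6 windows with this motif, which was found there on each strand in 2 overlapping matches and occurs on either strand in 13.6% of promoters. GGGCGG was in none of the 6 and in 35.7% of promoters, and CCAAT was in those of *Aldh1a2* and *Tbx18* and in 37.4% of promoters, both strands searched. These are matches of letters and were not tested as sites.

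*Wt1* (ENSMUSG00000016458, chromosome 2 from 105126529 to 105173616, plus strand, mm10) encodes a zinc finger transcription factor of the epicardium and of mesothelia. Its level was 14.3, 14.5 and 17.2 CPM in KO and 21.2, 21.0 and 22.04 CPM in WT. All KO libraries were below all WT libraries, with a wider spread in KO. *Wt1* fell by 0.48 on the log2 scale (SE 0.10, adjusted p = 0.00783, edgeR).

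*Tcf21* (ENSMUSG00000045680, chromosome 10 from 22817279 to 22820128, minus strand) encodes a basic helix-loop-helix factor that epicardial cells need to form fibroblasts. It stood at 40.8, 44.1 and 37.5 CPM in KO and at 60.7, 58.5 and 51.0 CPM in WT. Replicate 3 was the lowest library of both labels, and the labels did not overlap. The log2 fold change was -0.48 (SE 0.09, adjusted p = 0.00503, edgeR).

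*Tbx18* (ENSMUSG00000032419, chromosome 9 from 87702800 to 87731260, minus strand) encodes a T-box repressor of the epicardium. CPM were 53.6, 56.6 and 54.3 in KO and 72.5, 73.4 and 72.5 in WT. The WT libraries lay closer together than for any other member, with a coefficient of variation of 0.697%. The log2 fold change was -0.41 (SE 0.05, adjusted p = 0.00089, edgeR). The antisense gene *D030062O11Rik* overlaps *Tbx18*, and 18.3% of the 50-base words of the *Tbx18* transcripts were shared with other genes, but it had only 0, 0 and 4 counts in KO and 4, 5 and 12 in WT. Of the other T-box genes, 6 of 16 passed the expression filter, none was higher and 2 were lower, against 17.7% and 12.5% of all genes tested. Under fibroblast marker scaling 2 were higher and 1 lower, against 8621 and 44 of all 14084 genes tested. *Tbx5*, a factor of heart and forelimb development, fell by 0.999 (SE 0.18, adjusted p = 0.00447, edgeR) from 5.46, 4.30 and 4.83 CPM in WT to 2.13, 2.55 and 2.58 in KO. *Tbx20*, a T-box factor of heart development, had a log2 fold change of -0.28 (SE 0.06, adjusted p = 0.00755, edgeR) and of 0.13 with fibroblast marker scaling, where *Tbx5* was at -0.59 (adjusted p = 0.0206, edgeR).

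**Figure D1:**
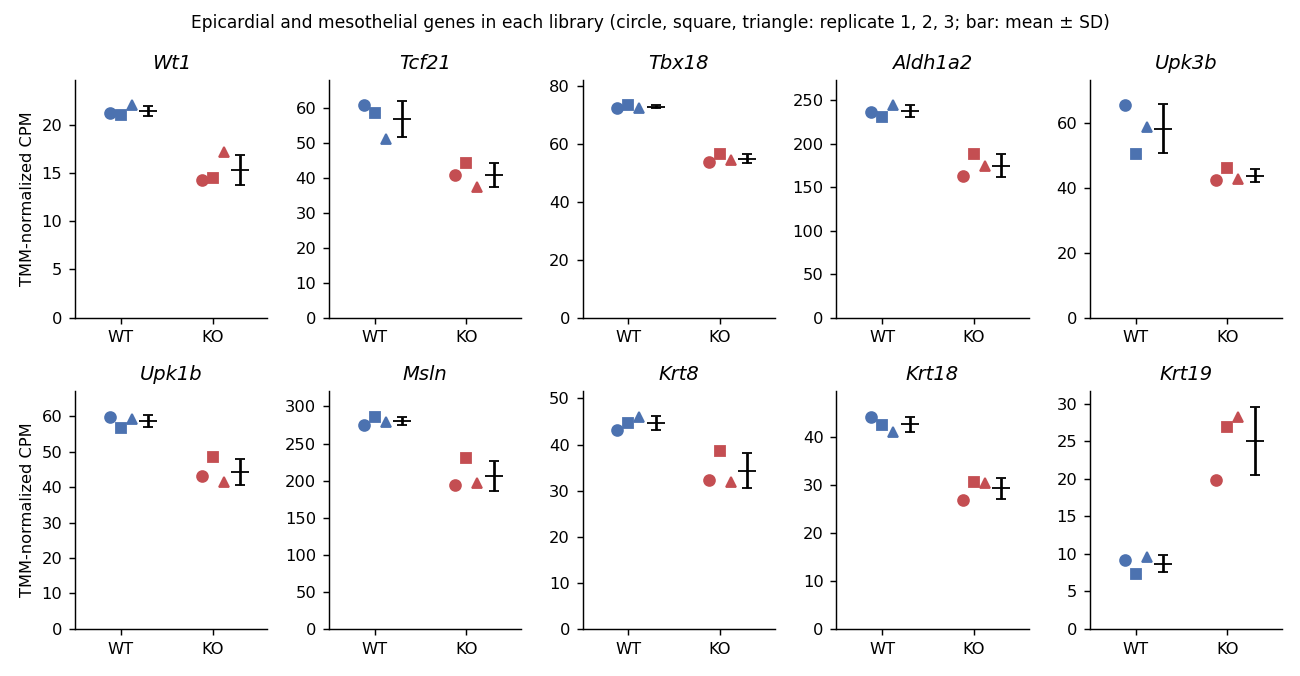
TMM-normalized CPM of the 10 genes in each library, WT in blue and KO in red, with the marker shape giving the replicate and the bars the mean ± SD (n = 3). In every panel the labels do not overlap, with KO below WT in 9 genes and above it in *Krt19*, and under fibroblast marker scaling *Tbx18*, *Upk1b* and *Krt8* lose this direction.

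*Aldh1a2* (ENSMUSG00000013584, chromosome 9 from 71215789 to 71296243, plus strand) encodes the retinaldehyde dehydrogenase that makes retinoic acid in the epicardium, and it has the promoter of most CpG shown above. It was at 162, 188 and 174 CPM in KO and at 237, 231 and 244 CPM in WT. Every KO library was below every WT library. The log2 fold change was -0.44 (SE 0.06, adjusted p = 0.00119, edgeR), and -0.03 with fibroblast marker scaling (adjusted p = 0.658, edgeR).

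Other genes of the retinoic acid pathway moved in both directions. Of 22 listed, 16 passed the expression filter, 3 were higher and 4 lower, and their median log2 fold change was -0.05. Of all genes tested 17.7% were higher and 12.5% lower. Under fibroblast marker scaling 8 of the list were higher and none lower, against 8621 higher and 44 lower of all 14084 genes tested. *Rarres2*, the gene of the chemoattractant chemerin, fell by 0.77 (SE 0.20, adjusted p = 0.0207, edgeR), and *Dhrs9*, a retinol dehydrogenase, rose by 0.80 (SE 0.22, adjusted p = 0.0250, edgeR). Both calls were lost without WT replicate 1 or WT replicate 3, with adjusted p of 0.0615 and 0.0728 for *Rarres2* and of 0.0829 and 0.0737 for *Dhrs9* (edgeR), and that of *Rarres2* also without KO replicate 2 (0.0514) or KO replicate 3 (0.0765). *Rarres2* also lost it with DESeq2 (adjusted p = 0.0690) and with fibroblast marker scaling (-0.36, adjusted p = 0.164, edgeR), and *Dhrs9* with the replicate number as a block (0.77, adjusted p = 0.0556, edgeR). *Rara*, a retinoic acid receptor, rose from 26.0, 26.2 and 25.0 CPM in WT to 36.9, 40.9 and 38.7 in KO, a log2 fold change of 0.59 (SE 0.07, adjusted p = 0.000592, edgeR). *Aldh1a1* and *Aldh1a3* encode further enzymes that make retinoic acid. *Aldh1a1* was at -0.36 (SE 0.06, adjusted p = 0.00404, edgeR) and at 0.06 with fibroblast marker scaling, and *Aldh1a3* was at -0.34 and did not pass (adjusted p = 0.202, edgeR). Of the enzymes that break retinoic acid down, *Cyp26a1* had 6, 3 and 8 counts in KO and 9, 6 and 14 in WT and was not tested. *Cyp26b1* stood at 22.6, 15.5 and 16.1 CPM in KO and at 8.47, 9.42 and 9.67 CPM in WT, a log2 fold change of 0.97 (SE 0.16, adjusted p = 0.00287, edgeR). KO replicate 1 was the highest library. The *Cyp26b1* FPKM was 3.47%, 2.05% and 2.31% of that of *Aldh1a2* in KO and 0.893%, 1.02% and 0.987% in WT, a ratio within each library that needs no scaling between libraries (p = 0.1 by an exact permutation test, two-sided, as low as 3 against 3 can give). *Rarb*, a receptor gene induced by retinoic acid, was at -0.27 (adjusted p = 0.0603, edgeR), *Dhrs3*, which returns retinaldehyde to retinol, at 0.15 (adjusted p = 0.152, edgeR), and *Rdh10*, which makes retinaldehyde, at -0.04 (adjusted p = 0.874, edgeR). None of these passed the threshold. *Stra6*, a retinol transporter, had at most 2 counts in any library and was not tested.

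*Msln* (ENSMUSG00000063011, chromosome 17 from 25748614 to 25754327, minus strand) encodes mesothelin, a lipid-anchored surface glycoprotein of mesothelia. Its level was 194, 230 and 196 CPM in KO and 276, 286 and 280 CPM in WT. KO replicate 2 was the highest KO library and still below WT. *Msln* fell by 0.44 on the log2 scale (SE 0.07, adjusted p = 0.00222, edgeR).

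The uroplakins form rigid plaques on the urothelium, and *Upk1b* and *Upk3b* are also expressed in mesothelia. *Upk3b* (ENSMUSG00000042985, chromosome 5 from 136038496 to 136046487, plus strand) was at 42.3, 46.1 and 42.8 CPM in KO and at 65.5, 50.6 and 58.7 CPM in WT. The WT libraries spread more than the KO libraries, and WT replicate 2 came closest to KO. The log2 fold change was -0.41 (SE 0.10, adjusted p = 0.0138, edgeR), and without KO replicate 3 it was -0.39 with an adjusted p of 0.0513 (edgeR).

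*Upk1b* (ENSMUSG00000049436, chromosome 16 from 38773184 to 38800203, minus strand) had 43.2, 48.5 and 41.3 CPM in KO and 59.9, 56.8 and 59.2 CPM in WT. The labels did not overlap. Its log2 fold change was -0.40 (SE 0.07, adjusted p = 0.00436, edgeR). The *Upk3b* FPKM was 49.6% ± 2.13 (SD, n = 3) of that of *Upk1b* in KO and 49.7% ± 5.08 in WT, and the labels overlapped. Of the uroplakins of the urothelium, *Upk2* and *Upk3a* had 0 counts in all libraries, which allows up to 3 counts in each. *Upk3bl* had at most 1 count, and *Upk1a* was at 0.36 (SE 0.45, adjusted p = 0.584, edgeR) with levels near 1 CPM. The 2 members are thus the only uroplakins of 6 above that level.

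*Krt8* (ENSMUSG00000049382, chromosome 15 from 101996711 to 102004342, minus strand) and *Krt18* (ENSMUSG00000023043, chromosome 15 from 102028216 to 102032026, plus strand) encode the type II and the type I keratin that pair in simple epithelia. Their genes lie 23873 bases apart and are read away from each other, and their promoters are printed above. *Krt8* was at 32.3, 38.7 and 32.0 CPM in KO and at 43.1, 44.7 and 46.1 CPM in WT, with no overlap. Its log2 fold change was -0.38 (SE 0.09, adjusted p = 0.0130, edgeR), and without KO replicate 3 it was -0.32 with an adjusted p of 0.0507 (edgeR). Of its 50-base words 29.7% occur in other genes, most of them in a *Krt8* pseudogene, so its counts are less certain than those of the other members. *Krt18* was at 26.8, 30.5 and 30.4 CPM in KO and at 44.2, 42.5 and 41.0 CPM in WT. This was the largest fall among the 10, to 68.7% of WT, with a log2 fold change of -0.54 (SE 0.08, adjusted p = 0.00138, edgeR).

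*Krt19* (ENSMUSG00000020911, chromosome 11 from 100140810 to 100148665, minus strand) encodes another type I keratin, which can also pair with KRT8. It stood at 19.9, 26.9 and 28.3 CPM in KO and at 9.17, 7.37 and 9.53 CPM in WT. The lowest KO library was above every WT library, and the KO libraries spread most among all members, with a coefficient of variation of 18.0%. The log2 fold change was 1.53 (SE 0.16, adjusted p = 0.000316, edgeR) and 1.93 with fibroblast marker scaling. *Krt19* was called as higher under each of the 15 alternatives, with adjusted p up to 0.00216. None of its 50-base words occurs in another gene.

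The share of *Krt19* among the simple keratins differed between the labels. Of the summed FPKM of *Krt7*, *Krt8*, *Krt18* and *Krt19*, the share of *Krt19* was 17.1%, 19.0% and 21.5% in KO and 5.89%, 4.76% and 6.20% in WT. The share of *Krt18* was 37.6% ± 1.47 (SD, n = 3) in KO and 45.8% ± 1.43 in WT, that of *Krt7* 8.99% ± 0.713 and 11.3% ± 0.791, and that of *Krt8* 34.2% ± 2.39 and 37.3% ± 1.51. The size of each share depends on the gene length used, 8594 bases for *Krt7*, 1805 for *Krt8*, 1400 for *Krt18* and 2334 for *Krt19*. Without division by length *Krt7* was the highest, at 64.4 CPM in WT against 44.6 for *Krt8* and 42.5 for *Krt18*. The 4 shares sum to 100%, so a larger share of *Krt19* lowers the others. Of the summed FPKM of *Krt7*, *Krt8* and *Krt18* without *Krt19*, *Krt18* was 46.6% ± 2.44 in KO and 48.5% ± 1.51 in WT, *Krt7* 11.1% ± 0.835 and 11.97% ± 0.740, and *Krt8* 42.3% ± 1.93 and 39.5% ± 1.69, each with overlap between the labels. *Krt19* was at 44.6%, 52.8% and 55.8% of the FPKM of *Krt18* in KO and at 12.5%, 10.4% and 13.95% in WT. The *Krt8* FPKM was 91.1% ± 8.66 of that of *Krt18* in KO and 81.5% ± 5.83 in WT, with overlap (exact two-sided permutation test, p = 0.3). The type I keratins *Krt18* and *Krt19* together were at 132% ± 16.1 of the type II keratins *Krt7* and *Krt8* in KO and at 106% ± 6.499 in WT, without overlap (p = 0.1 by an exact permutation test, two-sided, as low as 3 against 3 can give). Without *Krt19*, *Krt18* alone was at 87.5% ± 8.66 of them in KO and 94.4% ± 5.78 in WT, with overlap (exact two-sided permutation test, p = 0.4), so the difference rests on *Krt19*. Other keratins are left out, among them type I *Krt14* at 14.7 FPKM in KO and 18.2 in WT. Type II *Krt80*, also left out, was at 5.83 FPKM in KO and 3.08 in WT. The ratio is thus not the balance of all type I and type II keratins. All shares and ratios here are taken within a library and do not depend on the scaling between libraries.

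**Figure D2:**
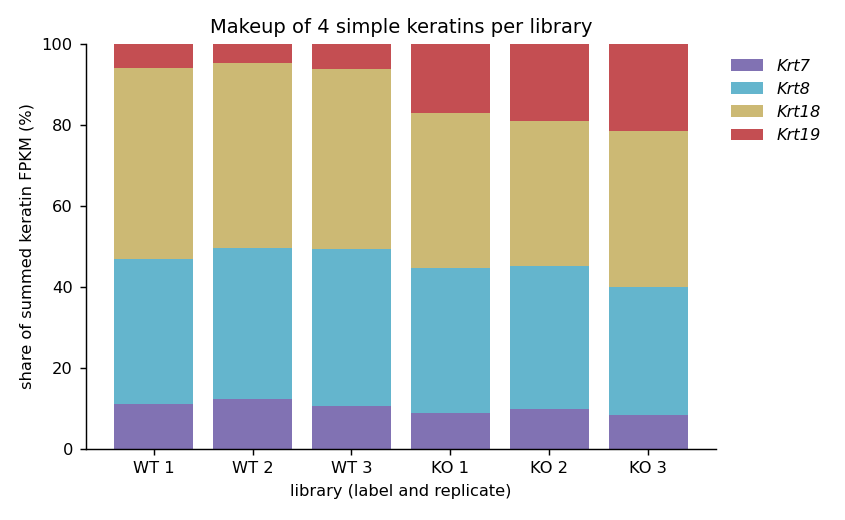
Share of *Krt7*, *Krt8*, *Krt18* and *Krt19* in their summed FPKM, in percent, 1 bar per library, WT first. The *Krt19* share is 17.1% to 21.5% in KO and 4.76% to 6.20% in WT, and since the 4 shares sum to 100% a larger share of *Krt19* leaves less for the others. The length used for *Krt7*, 8594 bases, is the longest of the 4 and makes its share small.

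Of the other keratins, 48 were listed, 34 had at most 3 counts in every library and 5 passed the expression filter, of which 1 was higher and 2 lower, against 17.7% and 12.5% of all genes. *Krt80*, a type II keratin, rose by 0.89 (SE 0.17, adjusted p = 0.00625, edgeR), from 5.04, 5.19 and 6.40 CPM in WT to 8.27, 10.4 and 11.99 in KO. *Krt7*, the type II keratin of ducts and mesothelia, was at 37.5, 51.1 and 40.8 CPM in KO and at 63.6, 69.5 and 60.2 CPM in WT, a log2 fold change of -0.58 (SE 0.11, adjusted p = 0.00650, edgeR). *Krt14*, a type I keratin of basal cells, was at -0.34 (SE 0.09, adjusted p = 0.0218, edgeR) and at 0.08 with fibroblast marker scaling, where *Krt7* was at -0.17 and neither passed. *Krt14* also lost its call without KO replicate 2, KO replicate 3 or WT replicate 1, with adjusted p of 0.0664, 0.0839 and 0.0717 (edgeR).

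FPKM, which divides by gene length, allows levels to be compared between the genes, with 1 length per gene for all its transcripts. The order was the same in both labels, from *Msln* at 98.8 ± 9.16 FPKM (SD, n = 3) in KO and 131 ± 2.21 in WT, over *Aldh1a2* at 78.0 ± 5.27 and 103 ± 3.05 and *Tcf21* at 33.7 ± 2.63 and 45.8 ± 4.10, to *Wt1* as the lowest at 1.53 ± 0.160 and 2.10 ± 0.0545. The length used for *Wt1*, 10092 bases, is the longest of the members. Between lay *Upk1b* at 25.3 FPKM in KO and 32.7 in WT, *Krt18* at 21.1 and 30.01, *Krt8* at 19.2 and 24.4, *Upk3b* at 12.5 and 16.3, *Tbx18* at 11.6 and 14.99, and *Krt19* at 10.8 and 3.68. Neighbours in this order had separate ranges over the libraries, except *Krt18* and *Krt8* and also *Tbx18* and *Krt19* in KO, and *Upk3b* and *Tbx18* in WT. The range of *Krt19* thus spanned that of *Tbx18* in KO and lay below it in WT.

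Set against fibroblast markers in the same library, the 9 lower genes did not separate the labels. Their summed FPKM was 8.34% ± 0.343 (SD, n = 3) of the summed FPKM of the 12 fibroblast genes in KO and 8.45% ± 0.377 in WT, with 8.59%, 8.48% and 7.95% in KO and 8.88%, 8.21% and 8.26% in WT. The log2 difference was -0.02 with overlap (exact two-sided permutation test, p = 0.7). Each of the 9 overlapped between the labels when taken alone, with *Krt18* at the lowest log2 difference of -0.12 (exact two-sided permutation test, p = 0.2). *Krt19* was at 0.259%, 0.3003% and 0.334% of the fibroblast sum in KO and at 0.0852%, 0.0641% and 0.0834% in WT, a log2 difference of 1.94 without overlap (p = 0.1 by an exact permutation test, two-sided, as low as 3 against 3 can give). Against the summed endothelial markers it went the other way, at 2.39%, 4.52% and 4.11% in KO and 6.40%, 5.201% and 6.64% in WT, again without overlap. In the fibroblast sum *Col1a1* was the largest part, at 1818.9 FPKM in KO and 2417.5 in WT. The whole sum was 3343 to 3850 FPKM in KO and 4564 to 4851 in WT. Next came *Col1a2* at 540 and 686 FPKM and *Col3a1* at 487 and 638. The study reports *Col1a1* and *Col3a1* as lower in KDM5B-deficient cardiac fibroblasts under TGF-β. The ratios to the fibroblast sum are thus mostly to collagens, and a sum without collagens was not tested.

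**Figure D3:**
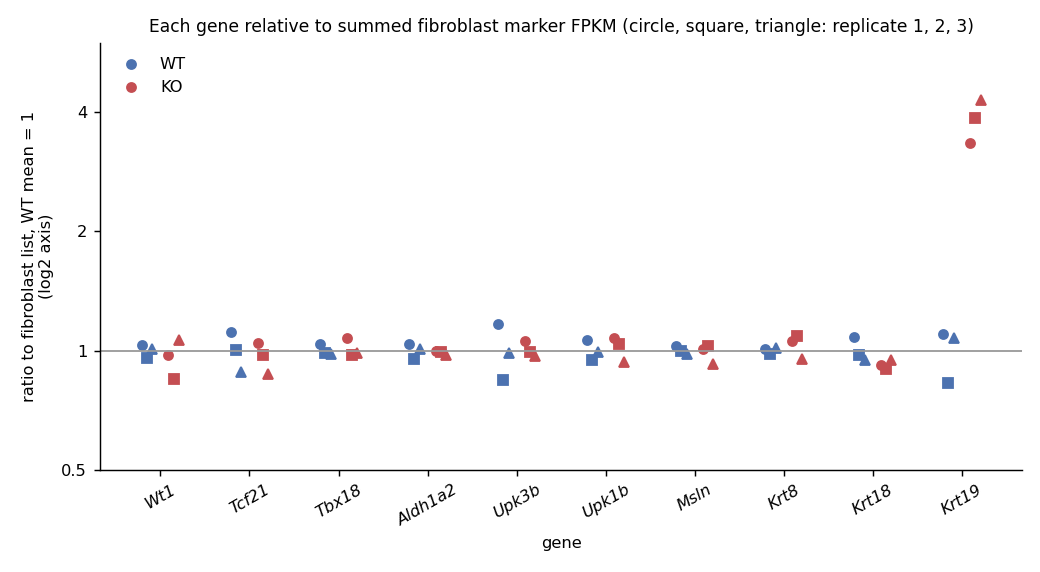
FPKM of each gene over the summed FPKM of the fibroblast list in the same library, divided by the WT mean, on a log2 axis, WT in blue and KO in red, with the marker shape giving the replicate. The KO and WT libraries overlap for 9 genes, and *Krt19* stands apart in KO.

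Scaling the libraries on the fibroblast list, so that its median ratio is 1, moved the median of all genes by 0.41 on the log2 scale, with 8621 genes called as higher and 44 as lower. The members' median was then -0.02 and that of all genes 0.40. The 9 genes lay below the median of all genes and close to the fibroblast genes under TMM. Fibroblast marker scaling shifts all genes by about the same amount, so it keeps this position by construction. The values of the 9 genes under fibroblast marker scaling ran from -0.13 for *Krt18* to 0.031 for *Krt8*. Among the KO libraries replicate 2 was the highest for 8 of the 10 members and replicate 1 the lowest for 7. In the same libraries the scaling factor of the fibroblast list was 0.829, 0.922 and 0.883, and *Pecam1* was highest in replicate 1 and lowest in replicate 2. The part of these markers in the members' values was not tested.

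**Figure D4:**
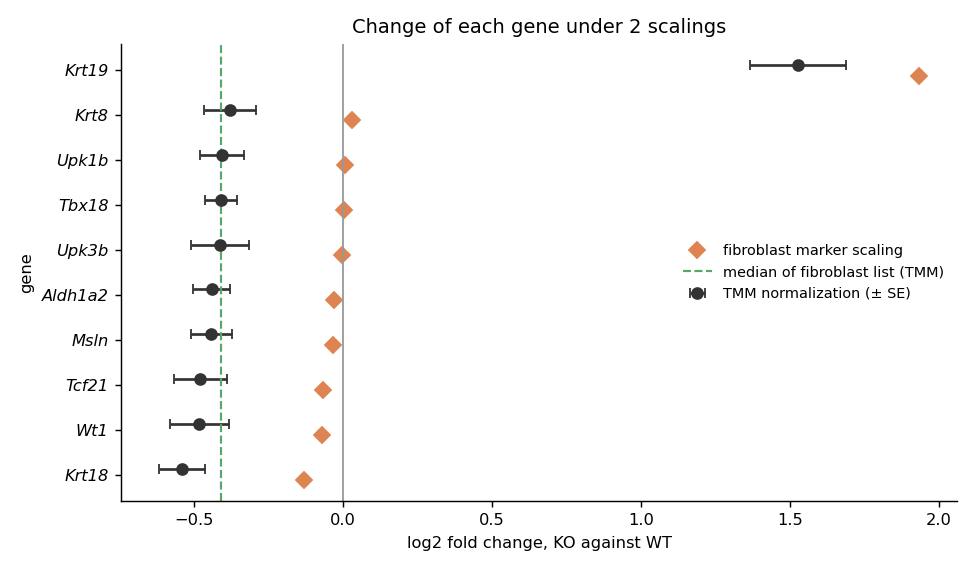
Log2 fold change of each gene, KO against WT, with TMM normalization (circles, ± SE) and with fibroblast marker scaling (diamonds), with the median of the fibroblast list under TMM as a dashed line. With TMM 9 genes lie between -0.54 and -0.38 around that line at -0.41, with fibroblast marker scaling they lie around 0 with *Tbx18*, *Upk1b* and *Krt8* above it, and *Krt19* is high under both.

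Other genes of mesothelium were lower together with the members. Of 17 listed, 14 passed the expression filter, 11 were lower and none higher, with a median log2 fold change of -0.45. Of all genes tested 12.5% were lower and 17.7% higher. Under fibroblast marker scaling 1 of the list was higher, 1 was lower and the median was -0.04. Leaving out 1 library gave 8 to 10 called genes in this list, and DESeq2 gave 9. *Bnc1*, a zinc finger factor of mesothelial cells, stood at 42.7, 48.2 and 42.4 CPM in KO and at 61.7, 66.2 and 66.5 CPM in WT, a log2 fold change of -0.55 (SE 0.07, adjusted p = 0.000941, edgeR). *Lrrn4*, a membrane protein of mesothelia, was at -0.40 (SE 0.07, adjusted p = 0.00301, edgeR), and *Anxa8*, an annexin, at -0.50 (SE 0.09, adjusted p = 0.00458, edgeR). *Muc16*, the mucin CA-125 that binds mesothelin, had the largest change of the list on low levels, with 0.573, 0.750 and 0.451 CPM in KO and 1.75, 1.23 and 1.35 CPM in WT. Its log2 fold change was -1.29 (SE 0.33, adjusted p = 0.0191, edgeR), and -0.88 with fibroblast marker scaling (adjusted p = 0.0474, edgeR). It lost its call without KO replicate 1, KO replicate 3 or WT replicate 1, with adjusted p of 0.0571, 0.0786 and 0.0701 (edgeR), and with DESeq2 at 0.0772. *Nkain4*, *Cldn15* and *Slpi* did not pass, and *Slpi* was the gene called as higher under fibroblast marker scaling, at 0.60. *Calb2* had at most 1 count and *Prr15l* none in any library.

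Of 21 genes of other epithelia listed, 13 passed the expression filter, 5 were lower and 1 higher, with a median of -0.32. Of all genes tested 12.5% were lower and 17.7% higher. Under fibroblast marker scaling 3 of the list were higher and none lower, against 8621 higher and 44 lower of all 14084 genes tested. *Grhl2*, a transcription factor of epithelia, had 74, 60 and 93 counts in KO and 4, 0 and 0 in WT (adjusted p = 0.000225, edgeR). WT was near or below the floor of 3 counts, so no fold is given. The adhesion molecule *Epcam* did not move with it, at 1.39, 0.450 and 1.35 CPM in KO and 1.05, 1.09 and 1.14 CPM in WT, a log2 fold change of -0.03 (SE 0.40, adjusted p = 0.961, edgeR). *Cdh1*, E-cadherin, was at -0.65 (SE 0.19, adjusted p = 0.0298, edgeR), and *Esrp2*, a splicing factor of epithelia, at -0.67 (SE 0.21, adjusted p = 0.0420, edgeR). Of the 6 fits that left out a library, *Esrp2* was called in that without KO replicate 2 and *Cdh1* in those without KO replicate 1 or KO replicate 2. The call of *Cdh1* was also lost with DESeq2 (adjusted p = 0.0672), that of *Esrp2* with limma on log2(FPKM + 1) and log2(FPKM + 0.1) (adjusted p = 0.0504 and 0.0621), and both with fibroblast marker scaling (adjusted p = 0.310 and 0.237, edgeR). Without KO replicate 3 or without WT replicate 1 the calls of *Cdh1*, *Esrp2* and *Krt14* were lost and 3 genes of the list were called.

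**Figure D5:**
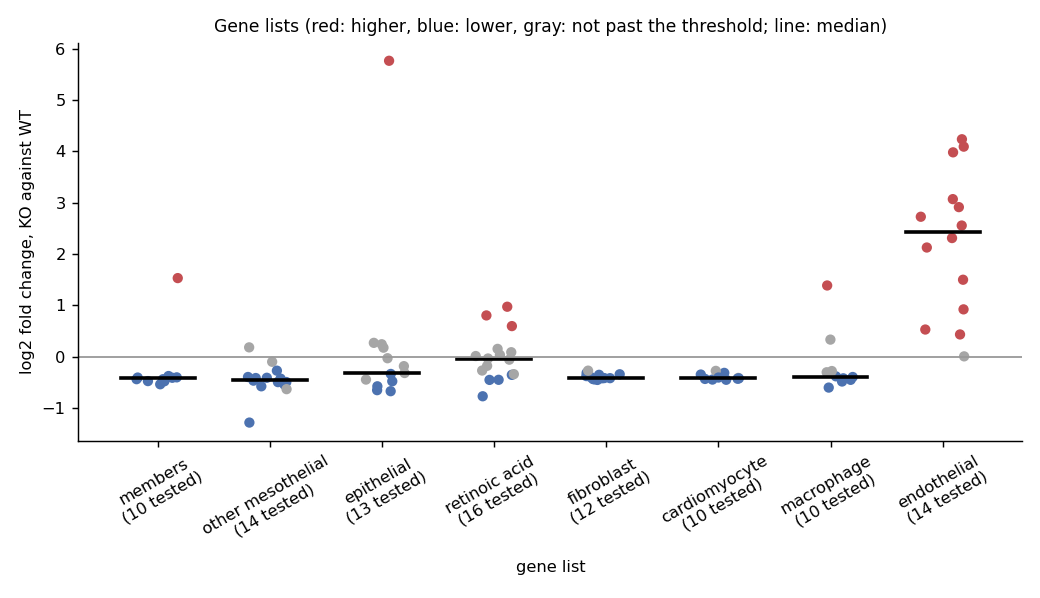
Log2 fold change, KO against WT, of each tested gene in 8 lists under TMM normalization, with genes called as higher in red, as lower in blue and the others in gray, and the list median as a black line. The medians of the members (-0.43), other mesothelial (-0.45), fibroblast (-0.41), cardiomyocyte (-0.42) and macrophage (-0.39) lists lie close together, all between -0.04 and 0.02 under fibroblast marker scaling, and the endothelial median is 2.43.

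Of the lists of other cell types, those of cardiomyocytes and macrophages had medians near that of the members. Of the 10 cardiomyocyte markers 8 were lower and none higher, with a median of -0.42, and of the 10 macrophage markers 6 were lower and 1 higher, with a median of -0.39. Under fibroblast marker scaling none of either list was lower. The summed cardiomyocyte markers were at 792 to 889 CPM in KO and 1119 to 1127 in WT, and the summed macrophage markers at 1232 to 1265 and 1521 to 1629. Of 6 mural markers tested 2 were higher and 2 lower, with a median of -0.36, and of 3 neutrophil markers tested 2 were higher and none lower, with a median of 1.95 on a summed level of 7.13 to 10.2 CPM in KO and 2.87 to 3.85 CPM in WT. Under TMM the medians of the members and of the fibroblast, cardiomyocyte and macrophage lists thus lay close together, and *Krt19* was the only member called as higher. Single genes differed, with values from -0.60 to 1.38 in the macrophage list. No test compared the lists. The part of these cell types in the members' values was not tested.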

How the data were processed

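The members, lists and tests were chosen with earlier results of these data known. The authors sequenced the libraries as paired ends, mapped the reads to mm10 with HISAT2 and deposited unnormalized whole-number counts per gene and FPKM values, which follow from the counts, the gene length and the library total. The submitters' processing notes name edgeR and GRCm38.p4. The counting tool, its strand setting and the annotation release are not given in the sources used here. The quasi-likelihood test of edgeR 4.0.16 (R 4.3.3) was run on the counts of all 6 libraries after filterByExpr and TMM, with Benjamini-Hochberg adjustment over the 14084 genes tested. Totals ran from 12025403 to 15329427 counts, so that the floor of 3 counts is at most 0.249 CPM and covers counting error only. In pairs of the same label, 22.4% to 31.8% of genes differed beyond sampling noise, so no library is a duplicate. As alternatives, DESeq2 1.42.0 and limma 3.58.1 on log2(FPKM + 1) or log2(FPKM + 0.1) replaced edgeR, the filter was dropped or set to a mean of 1 CPM, TMM gave way to library size, upper quartile or fibroblast marker scaling, the replicate number entered as a block, and each library was left out. Single ratios were compared with exact permutation tests. The scripts were tested on simulated data. Words of 50 bases shared between genes were counted in the transcripts of GENCODE M21. Named were all members, overlapping genes, up to 4 called genes of largest change and genes of paired function in the mesothelial, retinoic acid, epithelial, uroplakin, keratin and T-box lists, and of the cell type lists *Pdgfra*, *Dcn*, *Col1a1* and *Pecam1*. Genes named beyond this rule were chosen after their values were seen. A gene that the rule names is not reported here. Figures were drawn with matplotlib 3.10.9.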

Additional observations from a re-analysis of the deposited data

How the results depend on the processing

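Of 150 values of single members under 15 alternatives, 139 kept their direction and side of the threshold, 8 lost their call and 3 changed sign. All 3 sign changes and 6 of the lost calls came with fibroblast marker scaling, under which none of the members was lower (0) and *Tbx18* was at 0.0034, *Upk1b* at 0.0061 and *Krt8* at 0.031. The other lost calls were *Upk3b* and *Krt8* without KO replicate 3, so that leaving out a library gave 7 to 9 lower members. Calls under fibroblast marker scaling were 2 other mesothelial, 3 epithelial and 1 other keratin gene, against 11, 6 and 3. Leaving out 1 library gave 3 to 6 epithelial genes. *Kdm5b* was at -0.26 with upper quartile (adjusted p = 0.0324, edgeR), at 0.20 with fibroblast marker scaling, and from -0.29 to -0.17 with a library left out, where it passed the threshold without WT replicate 1 (-0.29, adjusted p = 0.0188, edgeR). The cause was not tested. With the replicate number as a block, the 9 lower and 1 higher members kept their calls and *Kdm5b* was at -0.21 (adjusted p = 0.0271, edgeR). The deviations of same-numbered libraries from their label means had correlations of 0.00896, 0.00944 and 0.0315. These were small but above those of all other KO and WT pairs, which ran from -0.0193 to 0.00768. The difference was not tested, so the correlations do not decide whether the numbers pair the libraries. All genes called numbered 4248, and 8621 higher with 44 lower under fibroblast marker scaling. With 3 libraries a label the exact permutation test cannot go below 0.1.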
